A study of Homo sapiens with 3 samples.

Results

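The short arm of human chromosome 6 carries a dense collection of transfer RNA (tRNA) genes and the main cluster of replication-dependent histone genes of the human genome. The domain described here was taken as every paired double-stranded RNA (dsRNA) region whose span in either library touched 25.7 to 28.96 Mb of chromosome 6 in hg19, a stretch of 3.26 Mb. It holds 616 of the 271645 paired regions of the series. The series used HEK 293 cells, a human embryonic kidney line, in 3 groups of 1 library each. DICER was mapped by chromatin immunoprecipitation and sequencing (ChIP-seq) in cells with wild-type (wt) Dicer status. RNA that withstood nuclease T1 was sequenced in wild-type cells and in cells with Dicer knockdown. Neither the knockdown reagent nor its efficiency is stated in the labels. The library called wild type below is the sheet named normal and the library called knockdown is the sheet named induced. Both dsRNA samples carry the same workbook, so if that reading of the names is wrong every direction reverses.

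tRNA genes are transcribed by RNA polymerase III from promoter elements inside the gene, and the transcript folds into the cloverleaf with its paired arms, so a single tRNA already contains short duplexes. Replication-dependent histone genes lack introns, are transcribed by RNA polymerase II in S phase, and their messages end in a conserved stem-loop in place of a poly(A) tail. Many H2A and H2B genes lie head to head and share the DNA between their starts. DICER, a ribonuclease of the RNase III family, dices long dsRNA and trims microRNA hairpins. Nuclease T1 cuts single-stranded RNA after G, so what it leaves is enriched for paired RNA but need not be paired throughout.

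Each region has a summit, the whole-number height of read coverage at its top, in each library. A summit is a height and not a sum over length, so values of genes of different length can be set side by side, but it is not corrected for library depth, which is unknown. For ratios, knockdown summits were multiplied by 0.958, the factor that equalises the summed summits of the 2 libraries, and a pseudocount of 1 was added to both, which understates the ratio of low regions. This scaling gives the lowest ratios of those tried: scaling to the median ratio raises log2 ratios by up to 0.55, and scaling by sums without the highest 1% of regions by up to 0.49, with a smaller rise in low regions because of the pseudocount. Medians and counts that turn direction under the scaling without the highest 1% are given with that value too. Ratios are reported for regions with a combined summit of at least 20, of which the domain has 222. Every ratio compares 2 libraries and has no replicate error, so intervals over regions (95%, from order statistics) describe the spread among regions only.

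The domain was rich in high regions. A mean summit of at least 100 was reached by 131 of the 616 regions (21.3%, exact binomial interval 18.1 to 24.7%), against 1.65% of the regions in the rest of the series. At least 1000 was reached by 44 regions and at least 10000 by 9. The authors' final set held 22 of the 616 regions (3.57%), against 0.369% of all regions of the series. These shares are not matched for level: the rest of the series had 981 final-set regions and 1323 regions at or above 1000. Of the 44 regions at or above 1000, 35 lay on tRNA genes and 8 on histone genes. The remaining one, at chr6:27740071-27740172, lay on no gene of the RefSeq table and reached 1228 in wild type and 1170 in knockdown.

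Genes were placed on the regions by sliding the spacing pattern of RefSeq tRNA and histone genes along them, without converting coordinates. All 144 RefSeq tRNA genes of the domain were placed and 136 had a region, of which 127 passed the minimum. Of 55 histone genes, 53 were placed and 49 had at least 1 region, with 60 regions in all and 45 past the minimum. The other 420 regions were low: 370 of them (88.1%) had a mean summit below 10, and only 3 reached 100. tRNA regions carried 94.3% of the summed summit height of the domain in wild type and 94.0% in knockdown, histone regions 5.05% and 5.29%.

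**Figure D1:**
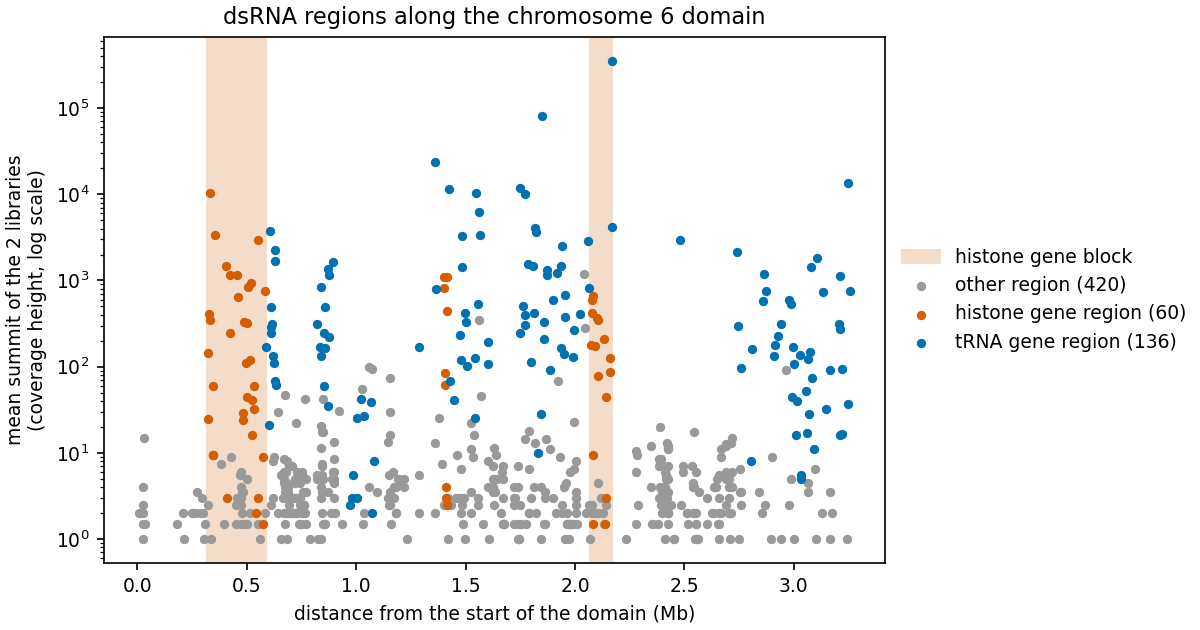
Mean summit of the 2 libraries (vertical, log scale) against the distance from the start of the domain in Mb for all 616 regions, coloured by the gene placed on them, with the histone blocks shaded. Most high points outside the shading are tRNA gene regions in runs, and most inside it are histone gene regions. At a mean of 100 or more, 96 of 103 regions outside the shading lay on tRNA genes and 4 on histone genes. Most of the 420 other regions lie below 10.

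A single tRNA gene dominated the height of the domain. The glycine gene TRG-GCC2-3 (chr6:27870659-27870795 in the wild-type library) reached 355353 in wild type and 356171 in knockdown, which was 55.04% and 56.49% of the summed height of the domain. It ranked 59 by mean summit among all regions of the series. The aspartate gene TRD-GTC3-1 came next with 106213 and 54624, then the proline gene TRP-CGG2-1 (chr6:27059498-27059614) with 26352 and 21104. At the other end of the same gene class lay copies near the floor, such as the alanine gene TRA-AGC14-1, with 4 in wild type and 1 in knockdown. The 8 placed tRNA genes without a region were TRA-AGC9-1, TRA-AGC14-2, TRI-AAT6-1, TRM-CAT4-2, TRM-CAT5-2 and 3 copies of TRNAA-AGC.

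Reads of tRNA genes with near-identical copies cannot be assigned with certainty, and the treatment of reads with several matches is not stated in the sources at hand. The values of single copies are therefore those the authors' processing assigned to them. There were 17 groups of genes that share an isodecoder number, 43 copies in all. Under the main scaling the sign of the ratio was the same within each of the 17 groups. Such agreement is likely for any grouping, because 86.6% of all tRNA regions past the minimum were above 0. Without the highest 1% in the sums, the 2 copies of TRL-CAA1 had opposite signs, with TRL-CAA1-2 at -0.32. Levels within a group differed by a median factor of 2.5 in wild type. The widest spread was among the 6 copies of TRX-CAT1, the initiator methionine tRNA, from 64 to 3465 in wild type and from 73 to 4831 in knockdown.

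Most tRNA gene regions were higher in the knockdown library. Their median log2 ratio was 0.55 (0.47 to 0.68), a 1.46-fold difference, and 110 of 127 were above 0 (86.6%, where 26.9% of all 35876 regions past the minimum in the series were above 0). At 2-fold or more, 24 were higher (18.9%, against 5.07% of the series) and 3 lower (2.36%, against 30.8%). These shares are not matched for level: median summits past the minimum were 233 and 324 for tRNA regions and 22 and 15 for the series. The median of the rest of the series was -0.53. Read at matched level, tRNA regions with a mean summit of 100 to 300 had a median of 0.55 over 35 regions, against -0.25 for 2091 regions of the rest of the series in the same range; without the highest 1% in the sums these medians were 1.04 and 0.24. Between 1000 and 3000 the medians were 0.49 over 20 tRNA regions and -0.03 over 567 other regions of the series, or 0.99 and 0.46. The direction of the summed height depends on the scaling: the tRNA sum in knockdown was 0.933 times that in wild type, but 1.31 times without the highest 1% in the factor. Without TRG-GCC2-3 and TRD-GTC3-1 the sum was 1.18 times as high under the main scaling, and the median stayed at 0.55.

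**Figure D2:**
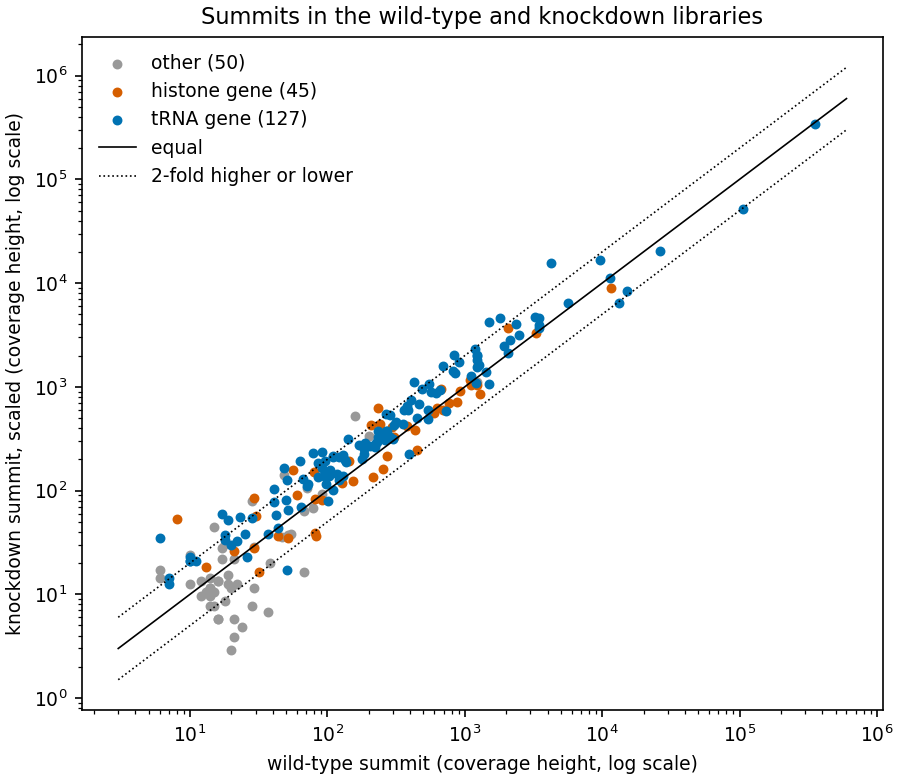
Scaled knockdown summit against wild-type summit, both on log scales, for the 222 regions with a combined summit of at least 20. The solid line marks equal values and the dotted lines a 2-fold difference; 110 of 127 tRNA regions lie above the solid line, and the highest point, TRG-GCC2-3, lies close to it.

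tRNA families were read from the gene names by amino acid and anticodon, so alanine genes named TRNAA-AGC stand apart from TRA-AGC. Of 39 families so named, 38 had a region past the minimum, all but TRNAA-AGC, and 32 of these had a median above 0. The count was 34 with unscaled summits and 37 under each of the other scalings used, so only the aspartate family TRD-GTC had a median below 0 under all of them. Its 3 genes were all lower in knockdown. TRD-GTC3-1 (chr6:27551200-27551333) had 106213 and 54624, a log2 ratio of -1.02. TRD-GTC2-6 (chr6:27447428-27447606) had 15191 and 8697, and TRD-GTC2-7 (chr6:27471487-27471623) had 13333 and 6749. Scaling by sums without the highest 1% of regions gave -0.53, -0.38 and -0.55 for the 3 genes.

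The highest family median belonged to the arginine family TRR-TCG, at 1.75 over 3 genes. Its members were low: TRR-TCG5-1 had 78 in wild type and 238 in knockdown, TRR-TCG2-1 48 and 171, and TRR-TCG4-1 6 and 36. The serine family TRS-GCT had a median of 1.36 over 5 genes at much higher levels. TRS-GCT2-1 had 1802 and 4858, TRS-GCT5-1 had 1491 and 4408, and TRS-GCT4-1 had 697 and 1658. TRS-GCT6-1, the highest of the family in wild type, differed least, at 3459 and 4108, a log2 ratio of 0.19. The 4 other members ranged from 1.187 to 1.501.

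The valine family TRV-CAC held the gene with the highest ratio among all domain regions with a mean summit of at least 100. TRV-CAC2-1 (chr6:27248038-27248149) had 4273 in wild type and 16284 in knockdown, a log2 ratio of 1.87. The family's other genes, TRV-CAC1-6 with 553 and 1104 and TRV-CAC6-1 with 141 and 328, were also higher in knockdown. Valine genes with other anticodons differed less: the TRV-AAC median was 0.28 over 5 genes, and the single TRV-TAC gene had 541 and 515. Under the main scaling, the glutamate gene TRE-CTC1-6, at 9592 and 17323, was the other tRNA gene above a mean of 10000 higher in knockdown. Over the 8 tRNA genes at that level the median was -0.22, with 2 above 0, and 0.27 without the highest 1% in the sums. TRG-GCC2-3, TRH-GTG1-5 and TRP-CGG2-1 were then above 0 as well, at 0.43, 0.47 and 0.11.

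The smaller families can be read by amino acid. All 17 serine genes, all 11 arginine genes past the minimum and all 9 glutamine genes were above 0, with medians of 0.62, 0.77 and 0.41. Threonine genes had a median of 0.55, with 8 of 9 above 0. Alanine genes had a median of 0.55, with 15 of 17 above 0; the lowest, TRA-AGC11-1, had 51 in wild type and 18 in knockdown. Of 10 isoleucine genes 8 were above 0, and the highest of them in level, TRI-AAT2-1, was not, at 729 and 611, a log2 ratio of -0.32 that became 0.17 without the highest 1%. The 6 initiator methionine genes were all above 0 with a median of 0.22, and the 5 elongator methionine genes (TRM-CAT) had a median of 0.86 at summits of only 10 to 37 in wild type.

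Gene length separates tRNAs by structure. Leucine and serine tRNAs have a long variable arm, and their 23 genes of 82 to 84 bp were all above 0, with a median of 0.62 (0.41 to 0.89). Genes of 77 bp or shorter were close to this, with a median of 0.55 (0.43 to 0.69) and 80 of 93 above 0. Genes of 87 bp or longer include those with an intron, which is spliced out of the precursor by a dedicated endonuclease. These differed among themselves. The tyrosine family TRY-GTA, with genes of 89 to 91 bp, was higher in knockdown in 4 of 4, from TRY-GTA6-1 with 1233 and 2078 to TRY-GTA8-1 with 183 and 260. The isoleucine gene TRI-TAT2-2 had 92 and 245. The leucine family TRL-CAA, with genes of 105 to 108 bp, was lower in knockdown in 4 of 4, with a median of -0.43, but of 0.05 with 2 of 4 above 0 when sums left out the highest 1% of regions. TRL-CAA2-1 had 1509 and 1106, TRL-CAA3-1 had 1215 and 1128, TRL-CAA1-2 had 395 and 235, and TRL-CAA1-1 had 101 and 82.

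**Figure D3:**
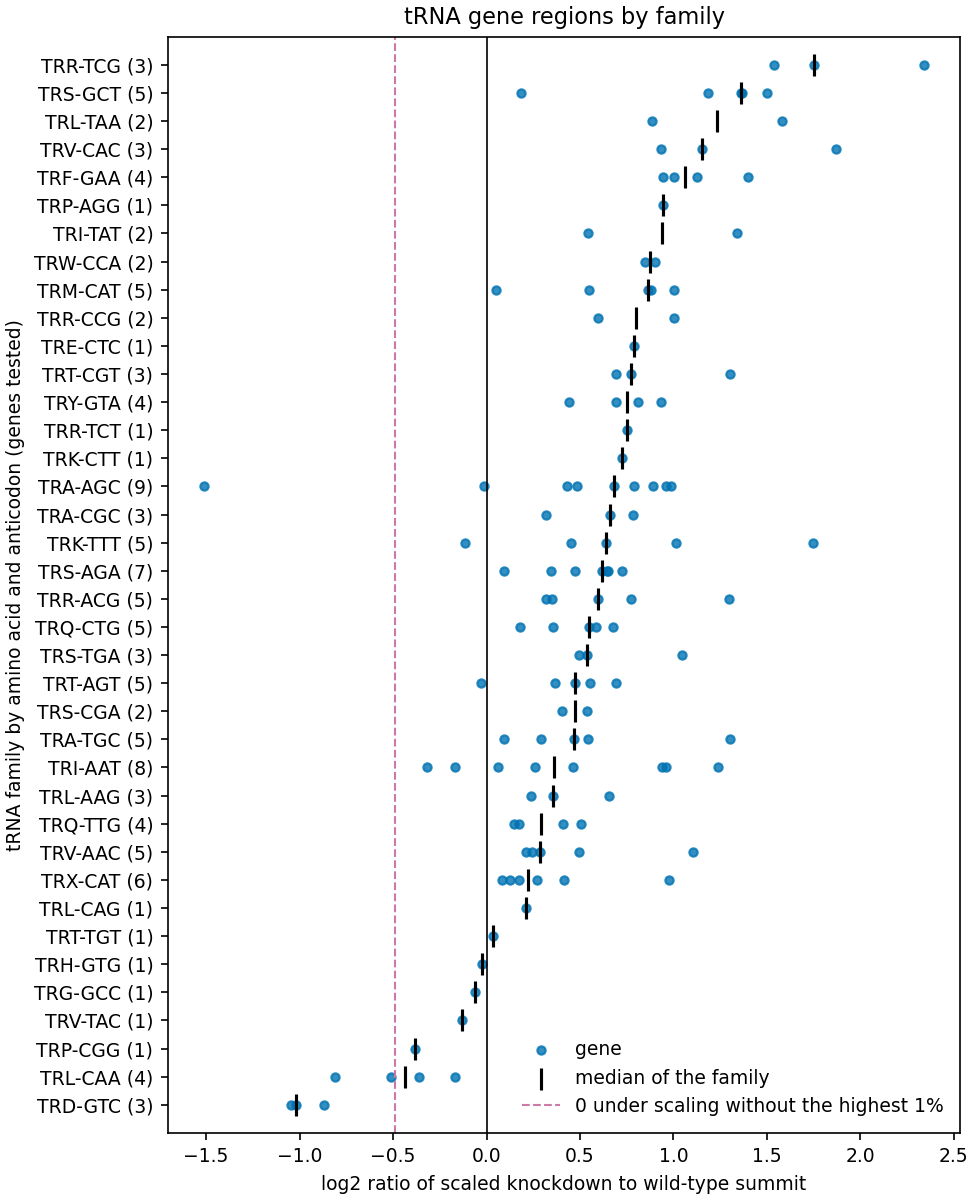
Log2 ratio of scaled knockdown to wild-type summit for the 127 tRNA gene regions past the minimum, in 38 families ordered by median (number of genes in brackets). The TRD-GTC family stands at the bottom, left of the dashed line that marks equality when sums leave out the highest 1% of regions, and TRR-TCG at the top has a median of 1.75.

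tRNA regions were wider than the genes on them. Among the 97 with a mean summit of at least 100, the median width was 149 bp in wild type and 151 bp in knockdown, for genes with a median length of 73 bp. Widths ran from 65 to 370 bp in wild type. The region of the histidine gene TRH-GTG1-5 was 300 bp wide, with summits of 11351 and 11643. Histone regions with a mean summit of at least 100 followed gene length instead, on genes of up to 1000 bp. For these 27 genes, the median width was 487 bp in wild type and 484 bp in knockdown, and the median gene was 486 bp long. The wild-type region was between 67.4% and 121% as wide as its gene was long. Lower histone regions could cover less of the gene, such as 61 of 508 bp at H3C1 in wild type.

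**Figure D4:**
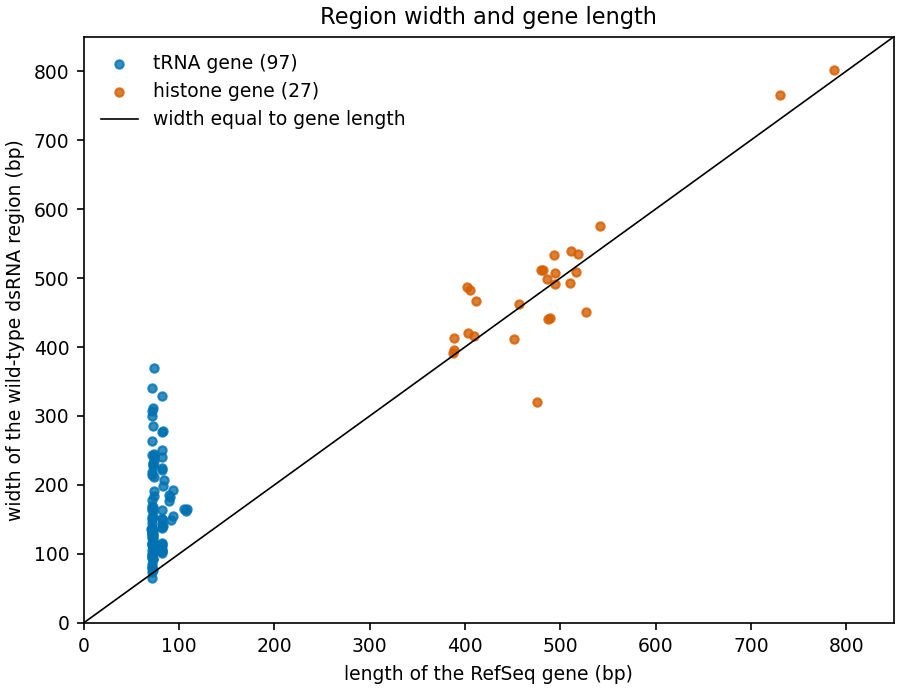
Width of the wild-type region against the length of the RefSeq gene, both in bp, for regions with a mean summit of at least 100 on genes of up to 1000 bp. The 27 histone regions lie along the line of equal width and length, and most of the 97 tRNA regions lie above it, up to 370 bp.

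The histone genes fall mainly in a block at 26.017 to 26.29 Mb and a block at 27.77 to 27.87 Mb. The blocks held 21.98 and 25.0 regions per 100 kb, and the rest of the domain 18.4. Inside the blocks, all 40 regions past the minimum lay on a placed gene, 39 on histone genes and 1 on the initiator methionine gene TRX-CAT1-2. The 33 block regions on no tRNA or histone gene reached at most 10 in wild type and at most 8 in knockdown. The median log2 ratio was 0.11 over 28 regions in the first block and -0.15 over 12 in the second (0.34 without the highest 1% in the sums), against 0.42 over 182 regions in the rest of the domain. Both blocks together had a median of -0.01 (-0.18 to 0.43), or 0.48 without the highest 1%. The difference from the rest of the domain was -0.43 under either scaling, which was nearly fixed in advance because the same factor multiplies every knockdown summit. That difference rests on the regions past the minimum: with no minimum on the combined summit it was -0.019. It also rests on tRNA genes, which held 126 of the 182 regions in the rest of the domain, with a median of 0.55. The 6 histone regions and the 50 other regions there had medians of -0.20 and -0.27, below that of the blocks. Without the highest 1% these were 0.29 and 0.18, again below the blocks.

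Under the main scaling, histone regions were near equality in the 2 libraries. The 45 regions past the minimum lay on 41 genes. Their median was -0.02 (-0.18 to 0.29), with 20 above 0, 5 higher by 2-fold or more and 2 lower. Without the highest 1% in the sums, 37 of the 45 were above 0. The sign depends on the scaling: the median was 0.04 with unscaled summits, 0.52 with the median ratio and 0.47 without the highest 1%. The distance to the tRNA genes could hardly depend on the scaling, because the same factor multiplies every knockdown summit. The tRNA median was 0.57 higher than the histone median under each of these 4 scalings. At a mean summit of 100 to 300 the histone median was -0.21 over 8 regions (0.28 without the highest 1%). At 300 to 1000 it was -0.01 over 15 (0.48), against 0.51 over 27 tRNA regions (1.00).

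H3 genes encode the core histone whose tail carries many regulatory marks. H3C2 (chr6:26031811-26032350) was the highest histone region, at 11553 in wild type and 9286 in knockdown, and held 1 of the 3 histone places in the authors' final set. H3C7 (chr6:26250367-26250874), another of the 3, was higher in knockdown, at 2056 and 3813. H3C10 was alike in the libraries at 601 and 587, while H3C4 had 56 and 163. Over 8 H3 regions the median was 0.18, with 4 above 0.

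H1 genes encode the linker histone, which binds DNA as it enters and leaves the nucleosome. H1-2 (chr6:26055932-26056698), the third histone region of the final set, had 3296 and 3429. H1-4 had 1223 and 1085. H1-3 was represented by separate regions that were both higher in knockdown, at 29 and 89 and at 8 and 56. With 4 regions past the minimum the H1 median of 0.76 rests on the H1-3 regions.

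H4 genes stood highest among the core histones in ratio, with a median of 0.38 and 7 of 9 above 0. H4C3 had 1249 in wild type and 1695 in knockdown, H4C5 had 666 and 997, and H4C4 had 206 and 452. H4C8, at 764 and 731, and H4C1, at 154 and 130, were the 2 below 0 and were above it, at 0.37 and 0.18, without the highest 1%. H2B regions stood lowest, with a median of -0.31 and 2 of 13 above 0. Without the highest 1% of regions in the sums these were 0.18 and 7 of 13. The H4 median under that scaling was 0.87. H2BC6 and H2BC12 each gave 2 of the H2B regions. The lower H2BC12 region (chr6:27106071-27106460), at 81 and 41, was named through a RefSeq gene of 8566 bp. H2BC12 had 1298 and 895, H2BC15 had 445 and 254, and H2BC13 had 213 and 142. H2BC11 and H2BC5 were near equality, at 1107 and 1079 and at 627 and 651.

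H2A genes had a median of -0.02 over 11 regions, with 5 above 0, or 0.47 and 10 without the highest 1%. H2AC6 had 1086 and 1225, H2AC8 had 920 and 945, and H2AC11 had 874 and 743. H2AC12, at 235 and 656, had the highest ratio of the type, a log2 ratio of 1.41, followed by H2AC4, at 241 and 460 (0.87), and H2AC15, at 60 and 95 (0.59). H2AC16 had the lowest, at 252 and 167. The microRNA gene MIR3143 had no region over it, and the H2AC12 region, 61 bp away, was the nearest. H1-1, H4C7, H3C8 and H3C12 were placed and had no region.

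**Figure D5:**
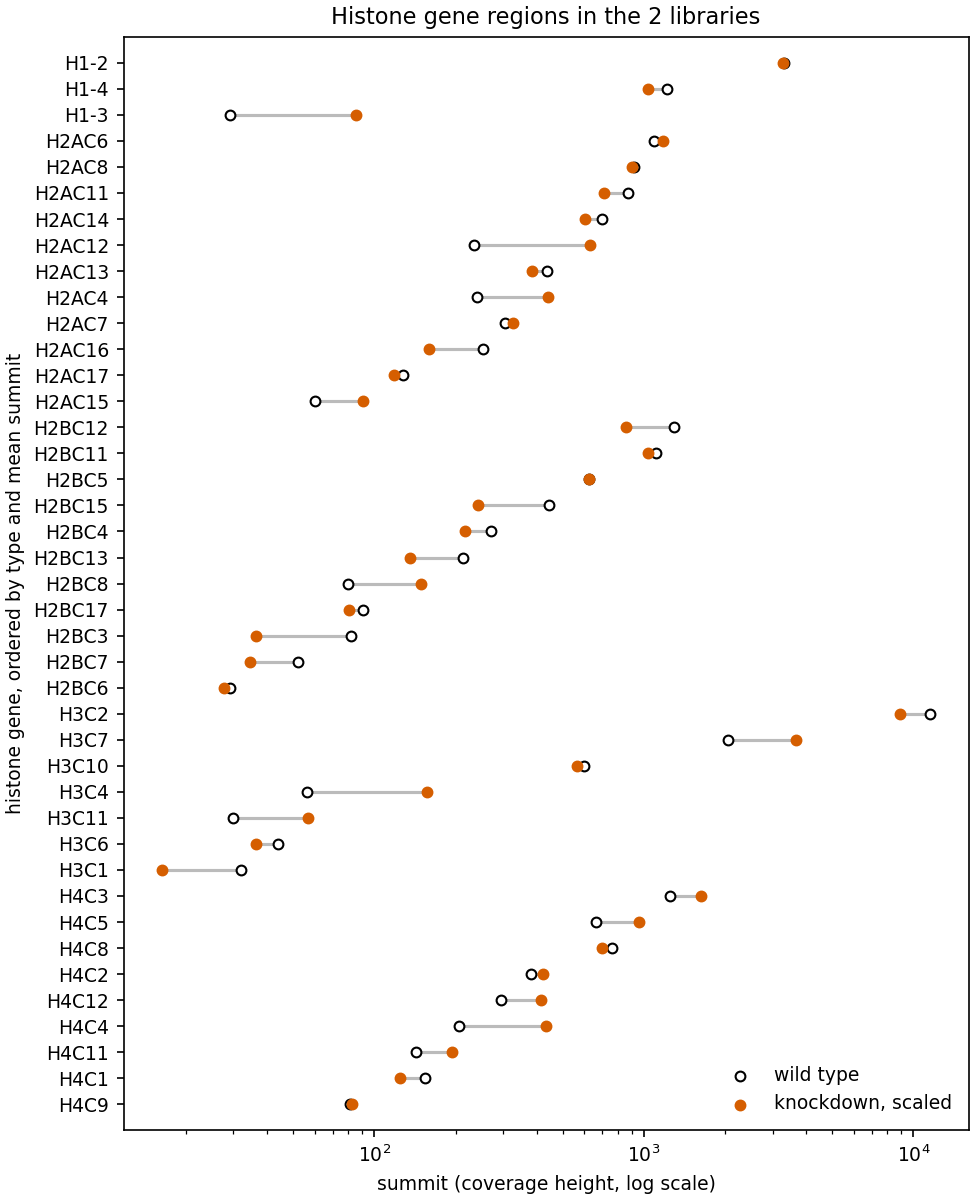
Summit in wild type (open) and scaled summit in knockdown (filled), on a log scale, for the highest region of each histone gene past the minimum, ordered by type and level. H3C2 is the highest at 11553 in wild type, and under this scaling most H2B genes lie to the left in knockdown and most H4 genes to the right; without the highest 1% of regions in the sums, 7 of 13 H2B regions were above 0.

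The 8 head-to-head pairs of H2A and H2B genes, with 193 to 247 bp between their starts, gave unequal signal from genes that share the DNA between them. In 7 pairs both regions passed the minimum, and the H2A region was the higher in 5 of 7 in each library. H2AC8 had 920 in wild type against 80 for H2BC8, a factor of 11.5, and 945 against 156 in knockdown. H2AC15 and H2BC15 went the other way, with 60 against 445 in wild type and 95 against 254 in knockdown. In the pair in which H2B did not pass, H2AC14 had 697 and 629 while H2BC14 had 10 and 9. The ratio between libraries had opposite signs within 4 of the 7 pairs, and within 3 under each other scaling; H2AC7/H2BC7 and H2AC15/H2BC15 were among them under all.

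The intergenic sequences of these 3 pairs, from RefSeq promoters of GRCh38.p14, are shown because they lie between genes of such different summits, with the stretch before the start of H3C2, the highest histone region. Capitals mark TATAAA, the TATA box, and CCAAT, each on either strand (TTTATA and ATTGG on the other). The sequences read 5′ to 3′ toward the gene named first. H2AC8, H2BC15 and H2BC14 are on the plus strand and H3C2 on the minus strand. Their coordinates are chr6:26216689-26216920, chr6:27838376-27838568, chr6:27814778-27815021 and chr6:26032100-26032249, and being of GRCh38.p14 they cannot be compared with the hg19 positions above.
H2AC8 (from H2BC8): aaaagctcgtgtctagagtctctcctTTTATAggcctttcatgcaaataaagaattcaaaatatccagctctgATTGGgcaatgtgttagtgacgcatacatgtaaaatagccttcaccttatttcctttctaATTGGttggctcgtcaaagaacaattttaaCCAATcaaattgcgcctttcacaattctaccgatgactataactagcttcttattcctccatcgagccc
H2BC15 (from H2AC15): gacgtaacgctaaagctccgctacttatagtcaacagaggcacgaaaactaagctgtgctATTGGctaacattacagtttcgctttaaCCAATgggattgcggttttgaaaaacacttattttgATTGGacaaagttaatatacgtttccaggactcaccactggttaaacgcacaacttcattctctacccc
H2BC14 (from H2AC14): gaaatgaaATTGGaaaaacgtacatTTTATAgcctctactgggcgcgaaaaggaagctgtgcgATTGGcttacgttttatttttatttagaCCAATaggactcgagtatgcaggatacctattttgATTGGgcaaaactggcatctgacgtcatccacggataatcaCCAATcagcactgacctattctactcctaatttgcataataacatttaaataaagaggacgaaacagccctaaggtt
H3C2: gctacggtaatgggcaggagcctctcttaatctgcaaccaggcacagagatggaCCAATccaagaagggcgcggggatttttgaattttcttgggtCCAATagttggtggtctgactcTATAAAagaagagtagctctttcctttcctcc

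CCAAT occurred 3 to 5 times in each of the 8 intergenic stretches. TATAAA occurred once in 4 of them, more often in 2 and not in 2, which include the H2AC15 and H2BC15 stretch. In the 250 bp before the start, TATAAA was present for 31 of 48 histone genes of the domain with a RefSeq promoter (64.6%), against 11.1% of 27305 promoters of all genes. CCAAT was present for 41 of 48 (85.4%), against 33.0%. Both strands were searched and the windows of head-to-head partners overlap, so a single motif between them can count for both genes. These letters are a description of the DNA and were not related to the summits.

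DICER ChIP-seq gave 119 peaks, of which 3 lay in the domain. Each had a dsRNA region wholly inside it, and each lay on a tRNA gene. The peak at chr6:26568897-26569236 covered TRY-GTA1-1, which stood at 900 in wild type and at 1797 in knockdown. The peak at chr6:27447349-27447650 covered TRD-GTC2-6, with 15191 and 8697. The peak at chr6:27618491-27618907 covered TRV-AAC3-1 (chr6:27618580-27618808), with 1102 and 1331. The 3 genes thus include ratios on both sides of 0, at 0.93, -0.87 and 0.21.

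The share of regions at a peak was 3 of 616 in the domain (0.487%), against 0.0423% of all regions of the series. These shares are not matched for level. All 3 regions had a mean summit of at least 1000, which 7.14% of domain regions reached, against 0.488% of the rest of the series. No histone region was at a peak, and neither were 32 of the 35 tRNA regions with a mean summit of at least 1000, TRG-GCC2-3 and TRD-GTC3-1 among them. The scores of the 3 peaks, the authors' own, were 105.94, 105.94 and 104.04, below the median of 126.98 over the 119 peaks. The ChIP library was from wild-type cells, so no peak can be compared between wild type and knockdown.

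Over the whole domain, 36 of 222 regions (16.2%) were higher in knockdown by 2-fold or more, where 5.07% of all regions past the minimum in the series were. By that measure 15 (6.76%) were lower, where 30.8% of the series were. Without the highest 1% in the sums the counts were 91 and 8, and with no minimum on the combined summit they were 55 and 91 among all 616. The domain median was 0.36 (0.21 to 0.48) over the 222 regions and -0.041 with no minimum. The latter is the ratio that this scaling gives a region with a summit of 2 in both libraries. Without its tRNA genes the domain median was -0.13 over 95 regions (0.36 without the highest 1% of regions in the sums), with 12 higher and 12 lower by 2-fold or more. Level moved with the ratio: in the rest of the series the median was higher at higher levels, from -0.68 at a mean summit of 10 to 30 to 0.14 at 3000 to 10000. tRNA regions stood above the rest of the series at both of these levels, with medians of 0.91 over 12 regions and 0.42 over 7, and did not at 10000 or more, with -0.22 over 8 against -0.02 over 418, or 0.27 against 0.48 without the highest 1%.

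The 50 remaining regions past the minimum, on neither tRNA nor placed histone genes, had a median of -0.27 (-0.50 to -0.01), with 17 above 0, or 0.18 and 30 without the highest 1%. The highest ratio of those with a mean summit of at least 100 was at TRS-ACT1-1, listed by RefSeq as a pseudogene of a serine tRNA, at 158 in wild type and 544 in knockdown. A region on no listed gene at chr6:27745654-27745779 had 202 and 354. Protein-coding genes between the tRNA runs were low. The 5 butyrophilin genes with regions, members of an immunoglobulin-like family with roles in T cell responses, had 49 regions that reached at most 68 in wild type and at most 40 in knockdown. The 81 regions on 14 zinc finger or SCAN domain genes reached at most 21 and 18. HMGN4, a nucleosome-binding protein gene, reached 47 and 37. The iron regulator HFE had 1 region, at 1 and 2, and the glutathione peroxidase genes of the domain had none.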

How the data were processed

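Bowtie 0.12.7 and MACS 1.4 are named for the ChIP data, and bcl2fastq 1.8.4 and BWA 0.7 for the dsRNA data, all with hg19, per the submitters' processing notes. The calling of dsRNA regions is not described there. The deposited peaks carry each peak's position and the authors' score. In the deposited dsRNA sheets each region has its ends and a summit, a whole-number coverage signal that the authors did not normalize, and the deposited final set gives positions only. Depth per library is unknown. The 2 sheets were paired by row. Printed dsRNA positions are as deposited, and peak positions count from 1.

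Ratios used summed-summit scaling, a pseudocount of 1 and a combined summit of 20 or more, in Python 3.11.15 with pandas 2.3.3, numpy 2.4.6 and scipy 1.17.1. RefSeq genes (GRCh38.p14, names and spacing only) of up to 1000 bp were joined at gaps of up to 100 kb and slid along regions of mean summit 100 or more with a 10 bp tolerance. A cluster was accepted with at least 5 genes in regions and at most 0.5 times as many elsewhere, which 5 of 7 clusters met; these took 11 to 40 genes against 3 to 5 at the best other place. Of the clusters not accepted, that of TRS-GCT5-1 was placed by its accepted neighbours, and that of H2AC1 and H2BC1 was not placed. A region was named for a gene where they overlapped by 0.5 of either. Placing and ratios were tested on simulated data.

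Named regions are the highest, the extremes of ratio at mean summit 100 or more, the highest of each histone block and tRNA family, and those at peaks, with further members of the families and pairs described. The members and lists were chosen with earlier results of these data known. No test between libraries was possible with 1 library per group. Alternatives covered scaling, pseudocount, minimum, block limits, placing settings, peak score and overlap.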

Additional observations from a re-analysis of the deposited data

How the results depend on the processing

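No paired analysis was possible because the groups hold 1 library apiece, so none could be left out. Scaling moved the level of every ratio. The domain median was 0.90 with the median ratio and 0.85 with sums that leave out the highest 1% of regions, and the tRNA median was 1.09 and 1.04. The count of regions higher by 2-fold was then 100 and 91, and of those lower 7 and 8. With no minimum on the combined summit the domain median fell below 0, to -0.041, with 55 higher and 91 lower. That median is the ratio of a region with a summit of 2 in both libraries, so its sign comes from the scale factor. With a minimum of 100 there were 23 higher and 4 lower. With pseudocount 10, 9 regions were lower. Without tRNA genes the domain median was -0.13. With peaks scoring at least 150, 0 peaks lay in the domain. The difference between the histone blocks and the rest, -0.43, shrank to -0.019 with no minimum, and lay between -0.37 and -0.50 under the 6 other alternatives. In all, 28 of 44 alternatives stayed within the interval over regions or within 1.5 times the count, that value included because the interval is wide. Among them were all 6 for tRNA against histone genes, added after seeing the data (0.53 to 0.60). For both differences between sets, the changes of scaling are no check. The same factor multiplies every knockdown summit, so the difference was nearly fixed in advance. Fewer tRNA regions were named with gaps of 30 kb (123) or placing at mean summit 500 (113), with medians of 0.55 and 0.54. With 1 library per group and unknown depth, none of these values separates condition from library.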
